A study of Mus musculus with 6 samples.

Results

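The cells described here are classical monocyte-like cells of mouse mammary tumours that carry Vcan and F13a1 transcripts. Vcan encodes versican, a matrix proteoglycan, and F13a1 encodes the catalytic A subunit of coagulation factor XIII. Cells were chosen on raw counts of unique molecular identifiers (UMIs, 1 per captured transcript). A chosen cell had at least 3 UMIs of Vcan and F13a1 together, at least 5 of Lyz2 (lysozyme, a general myeloid gene) and fewer than 10 of C1qa, C1qb and C1qc together (complement genes of mature macrophages). It had at most 1 UMI over Cd3e, Cd3d and Cd3g, and none of Cd79a, Ncr1 or Cxcr2, which mark T cells, B cells, natural killer cells and neutrophils. Of 26843 cells with at least 200 genes and at most 15% mitochondrial counts, 1781 met the rule, which is 6.63% of the cells in 5 libraries.

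The study sorted live CD45+ leukocytes from mammary tumours and made droplet-based single-cell RNA libraries, 1 for each group. The groups are labelled MRX, CTX, Combined, ctxd18t and combod18t. The series title speaks of MERTK inhibition with cyclophosphamide in triple negative breast cancer, but the labels do not spell out what each group name stands for, the doses, the mouse strain, the tumour line or the age or number of mice. The protocol describes day 7 mice treated 3 hours before harvest, and the names of 2 libraries carry an 18. It assigns multiplexing barcodes to MRX, CTX, Combined and VC, run together, and none to the libraries with an 18. All 5 libraries come from tumour-bearing animals, and 1 more library, labelled VC, lies outside the rule and was not used here. With 1 library per group there is no replicate and no test: differences between libraries compare those libraries, and variation between mice cannot be told apart from treatment. The chosen cells numbered 438 in MRX, 700 in CTX and 341 in Combined, with 222 in ctxd18t and 80 in combod18t. Their UMIs summed to 4182025, 8773099, 4582643, 3245732 and 1191219 in the same order, so the combod18t values are the least precise.

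Classical monocytes are made in bone marrow, leave it through the chemokine receptor CCR2 and carry Ly6C on their surface in mice. In tumours they are recruited by CCR2 ligands and become macrophages, losing Ly6c2 and gaining Apoe, complement and Mrc1. Interferon gamma from lymphocytes acts on them through IRF1 and other factors and induces CXCL9, CXCL10, guanylate-binding proteins and antigen presentation genes. Arginase 1, by contrast, breaks down arginine and is known as a gene of suppressive myeloid cells. MERTK is a receptor through which macrophages take up dying cells.

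Levels are given as CPM, a gene's UMIs per 1000000 UMIs summed over the chosen cells of a library. Intervals are 95% limits, exact Poisson for levels and exact binomial for shares of cells, and cover counting error only. A log2 ratio is that of CPM + 1 between libraries, and its interval holds the exact conditional binomial limits of the ratio without the added 1. A gene was compared where it had at least 50 CPM in 1 of the libraries and at least 50 counts over both, and it is called higher or lower at a 2-fold ratio. Genes that the rule used were left out.

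The 3 marker genes of classical monocytes that the rule did not use were present in every library. Ccr2 stood at 694 CPM in MRX, 687 in CTX and 520 in Combined, and 1291 in ctxd18t and 1177 in combod18t. It had a UMI in 94.5 to 100% of the cells. Ly6c2 stood at 438, 1024, 1131, 484 and 587 CPM in the same order and was highest in CTX and Combined. Fn1, which encodes fibronectin, ran the other way: 499 CPM in MRX, 160 in CTX and 139 in Combined, with 898 in ctxd18t and 891 in combod18t. The 3 genes together summed to 1631 to 2673 CPM in the chosen cells and to 458 to 1046 CPM in C1q-high cells of the same libraries (at least 10 C1q UMIs, fewer than 3 of Vcan and F13a1, otherwise the same rule, 1935 cells).

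Against those C1q-high cells the chosen cells were described over 4114 genes. The rule separated both kinds of cell, so these values carry no test. In all 5 libraries 55 genes were higher in the chosen cells by 2-fold and 20 were lower. The genes with the largest ratio in their weakest library were Mmp8, a neutrophil collagenase also made by immature myeloid cells (log2 ratio at least 2.86), Cxcl3, a neutrophil-attracting chemokine (2.80), Ifitm6 (2.58), Plcb1 (2.38) and the collagen-binding integrin chain Itga1 (2.05). Thbs1 (thrombospondin) had a log2 ratio of at least 1.83 and S100a4 one of at least 1.73. Prtn3, an azurophil granule protease of young myeloid cells, had one of at least 1.92. The genes furthest in the other direction were Ms4a7, with log2 ratios from -5.05 to -3.12, the chemokine Ccl8 (-4.94 to -2.89) and the lysosomal membrane gene Cd63 (-5.01 to -2.38). Apoe, the lipid carrier of tumour macrophages, had log2 ratios of -2.48 to -1.36 and Cx3cr1, the fractalkine receptor, of -2.39 to -1.33. Mrc1 did not separate the 2 kinds of cell (-0.98 to 0.34). Lyz2 cells short of both the Vcan and F13a1 cut and the C1q cut numbered 3222. Against them, log2 ratios of Ms4a7 (-1.26 to 0.45), Ccl8 (-1.41 to 1.49) and Cxcl3 (-0.49 to 4.45) lay on both sides of 0. So did those of Apoe (-0.63 to 0.39) and Cx3cr1 (-0.85 to 0.35). Cd63 ran from -0.80 to -1.6e-05. Mmp8 (1.64 to 3.58), Prtn3 (1.43 to 3.98), Itga1 (1.02 to 1.78) and Plcb1 (0.98 to 2.27) stayed above 0. So did Thbs1 (from 0.73), S100a4 (from 0.56) and Ifitm6 (from 0.37).

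**Figure D1:**
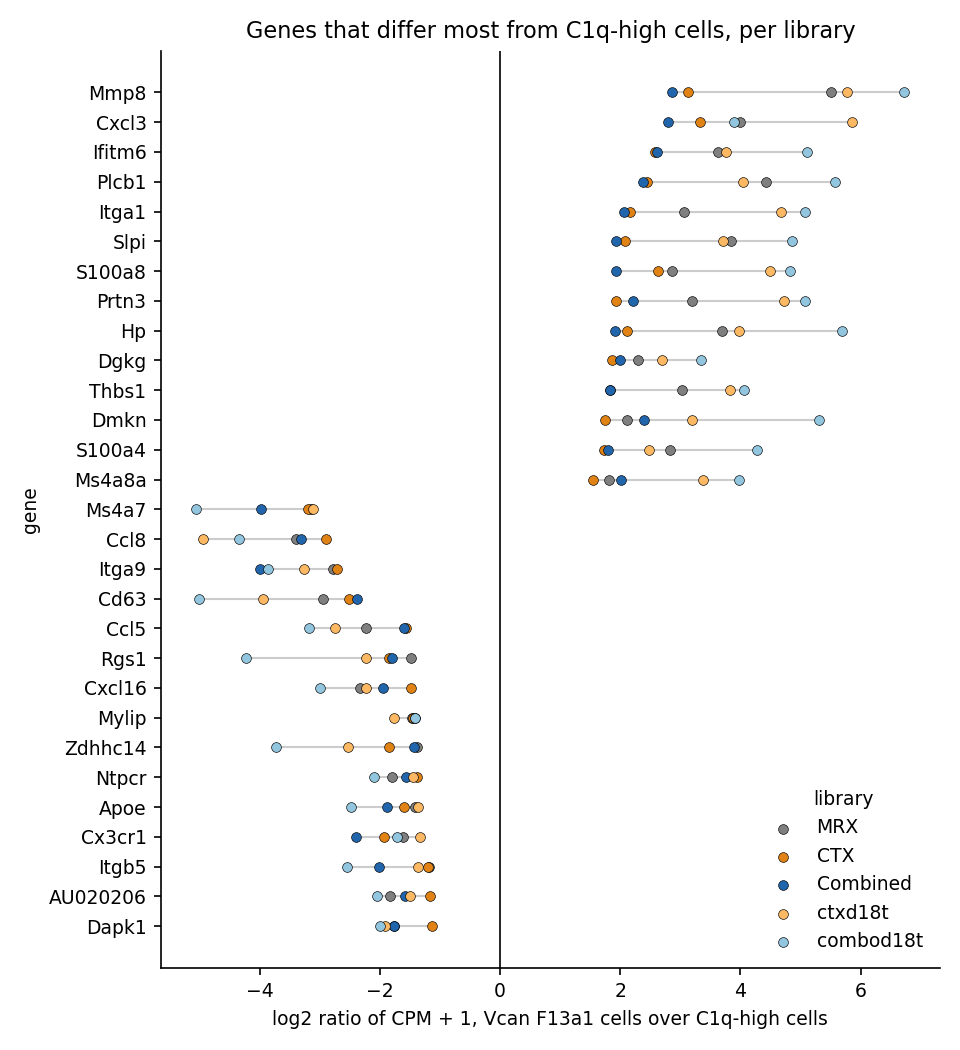
The log2 ratio of CPM + 1 in Vcan F13a1 cells over C1q-high cells of the same library (horizontal axis) is drawn for 14 of the genes with the highest and 15 with the lowest ratios (vertical axis), 1 point per library. Every library lies on the same side of 0 for each gene shown, Mmp8 starting at 2.86 and Ms4a7 ending at -3.12; the genes were picked for this.

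Pooled over the 5 libraries, cells on either side of the Vcan and F13a1 boundary had similar levels of Ly6c2, Ccr2 and Fn1. The 404 cells just outside it, with 2 UMIs of Vcan and F13a1, held Ly6c2 at 881 CPM, Ccr2 at 655, Fn1 at 138 and Chil3 at 102. The 262 cells just inside it, with 3 UMIs, held them at 877, 604, 135 and 157 CPM. A cut at 2 UMIs instead of 3 took CTX from 700 to 919 cells and Combined from 341 to 437. It took MRX from 438 to 510, ctxd18t from 222 to 232 and combod18t from 80 to 87. The cells just outside thus came mostly from CTX and Combined, and these levels were not read per library. Of the 1781 chosen cells 661 (37.1%) had 3 to 5 UMIs, and the median was 7. At the C1q boundary 11 cells had 9 C1q UMIs and 7 had 10. Both Vcan and F13a1 were found in 64.6% of the chosen cells in MRX, 50.6% in CTX and 58.1% in Combined, and in 70.7% and 71.2% of those in ctxd18t and combod18t. Cells with Vcan alone made up 25.7% in CTX and 24.9% in Combined, against 5.02% in MRX, 5.86% in ctxd18t and 1.25% in combod18t.

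Markers of other cell types were mostly low, other than those of neutrophils and macrophages. T cell markers outside the rule (9 genes) summed to 16.8 to 50.4 CPM, natural killer markers (7 genes, Klra8 at 0 in every library) to 1.68 to 18.7, B cell markers (7 genes) to 74.7 to 110, dendritic markers (8 genes) to 38.3 to 80.1 and fibroblast markers (6 genes) to 0.308 to 2.63 CPM. Neutrophil markers (7 genes) summed to 177 to 753 CPM, and Retnlg was at 0 in 3 libraries. The 5 cells highest in S100a8 and S100a9 held 44.7 to 79.2% of those UMIs. Epithelial markers (8 genes) summed to 10.4 to 30.2 CPM in 4 libraries and to 88.1 CPM in combod18t, where 1 cell held 93 of 105 epithelial UMIs. The 7 macrophage markers outside the rule were not low: they summed to 5638 CPM in MRX, 2281 in CTX and 1864 in Combined, and 4346 in ctxd18t and 2382 in combod18t, led by Apoe, against 13879, 5636, 4910, 9007 and 10090 in C1q-high cells.

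Some cell barcodes occurred in more than 1 library. CTX and combod18t shared 34 barcodes, of which 3 belonged to a chosen cell in either, and Combined and ctxd18t shared 21, of which 5 did. In each of those pairs 1 barcode belonged to a chosen cell in both libraries, and the other pairs shared 0. Cells with the same barcode were about as alike as cells with other barcodes: the median correlation of their profiles was 0.387 against 0.370 for Combined with ctxd18t and 0.265 against 0.275 for CTX with combod18t. No log2 ratio below is between libraries that share barcodes, but levels of all 5 libraries are set side by side.

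The chosen cells made up 8.05% (7.34 to 8.81) of the kept cells in MRX, 7.87% (7.32 to 8.45) in CTX, 7.62% (6.86 to 8.43) in Combined, 5.53% (4.85 to 6.29) in ctxd18t and 1.99% (1.58 to 2.47) in combod18t. The intervals of the differences among the first 3 libraries included 0: Combined minus CTX was -0.249 percentage points (-1.19 to 0.729, Newcombe interval) and CTX minus MRX -0.185 (-1.11 to 0.718). Combined minus MRX was -0.433 points (-1.49 to 0.637). The combod18t share lay below that of ctxd18t, by a difference of -3.54 points (-4.39 to -2.72).

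The order was different among myeloid cells. Of the Lyz2 cells that met every part of the rule other than those on Vcan, F13a1 and C1q, the chosen cells made up 32.4% (29.9 to 35.0) in MRX, 16.9% (15.8 to 18.1) in CTX, 28.7% (26.1 to 31.3) in Combined, 38.1% (34.2 to 42.2) in ctxd18t and 34.2% (28.1 to 40.7) in combod18t. Combined stood 11.7 points (8.97 to 14.6) above CTX, and CTX minus MRX was -15.4 (-18.2 to -12.7). Combined minus MRX was -3.72 points (-7.28 to -0.124). Between the day-18 libraries the interval included 0, at -3.96 points (-11 to 3.42). Lyz2 cells themselves were 24.9% of the kept cells in MRX, 46.4% in CTX and 26.6% in Combined, with 14.5% in ctxd18t and 5.82% in combod18t, so the lower share of chosen cells among all cells of combod18t went with fewer Lyz2 cells. Per C1q-high cell there were 1.19 chosen cells in MRX, 0.634 in CTX and 1.54 in Combined, and 1.5 in ctxd18t and 0.860 in combod18t.

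A cut on UMIs finds more cells in deeper libraries, and the chosen cells' median depth ran from 8976 UMIs in MRX to 13664 in ctxd18t. As an alternative, cells under 5000 UMIs were left out and every other cell was thinned to 5000 UMIs before the rule was applied. That kept 3528 of 5440 cells in MRX, 7240 of 8898 in CTX and 3376 of 4476 in Combined. In ctxd18t it kept 3323 of 4011 and in combod18t 3353 of 4018. The chosen cells were 9.33% of these cells in MRX, 6.05% in CTX and 5.57% in Combined, with 5.84% in ctxd18t and 1.85% in combod18t. The shares of Lyz2 cells were 26.6%, 10.9%, 15.3%, 33.9% and 26.2%. Among cells of at least 5000 UMIs MRX then stood above CTX and Combined. The gap between Combined and CTX among Lyz2 cells shrank to 4.46 points. The part of the left-out cells in these changes was not tested.

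**Figure D2:**
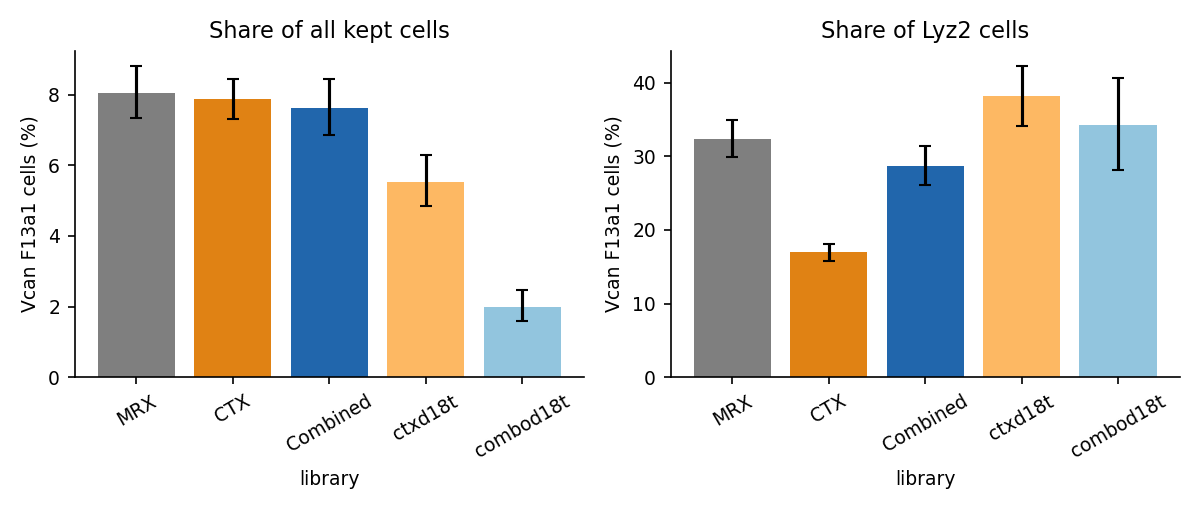
Bars give the Vcan F13a1 cells as a percentage of all kept cells (left) and of Lyz2 cells (right) in each of the 5 libraries, with exact 95% binomial intervals. The left panel runs from 8.05% in MRX to 1.99% in combod18t, while in the right panel CTX is lowest at 16.9%.

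The largest log2 ratio between Combined and CTX was in Arg1, which encodes arginase 1. Arg1 stood at 167 CPM (158 to 176) in the CTX cells and at 11.3 CPM (8.47 to 14.9) in the Combined cells, a log2 ratio of -3.77 (-4.31 to -3.48). Among the chosen cells 19.1% had an Arg1 UMI in CTX and 4.40% in Combined. With each cell thinned to 2000 UMIs the shares were 9.16% and 1.76%, against 0.208% and 0% of B cells (median depths 4104.5 and 4469.5 UMIs in B cells, 10859 and 11819 in the chosen cells). Chil3, a chitinase-like protein of Ly6C-high monocytes, stood highest in Combined: 72.8 CPM (67.3 to 78.7) in CTX against 306 (290 to 322), a log2 ratio of 2.06 (1.93 to 2.21).

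Only a small share of genes separated these libraries. Of 3433 genes compared, 10 differed by 2-fold (0.291%), 4 higher in Combined (0.117%) and 6 lower (0.175%), and the median log2 ratio over all genes was 0.06. Beside Chil3, the higher genes were Serpina3g, an interferon-inducible serine protease inhibitor (123 CPM in CTX, 262 in Combined, log2 ratio 1.08), Phlda1 (45.4 and 98.2 CPM, 1.10) and Gm14636 (1.06). Beside Arg1, the lower genes were the chemokine Ccl12 (199 and 60.0 CPM, -1.71), the calprotectin subunits S100a8 (186 and 64.8 CPM, -1.51) and S100a9 (-1.35), Gm15056 (168 and 74.4 CPM, -1.16) and the chemokine Ccl8 (111 and 53.7 CPM, -1.03). Ccl12 and Ccl8 bind receptors that draw in monocytes and lymphocytes. S100a8 and S100a9 rest on few cells: the 5 highest cells held 57.5% of their UMIs in CTX and 53.3% in Combined. With cells thinned to 2000 UMIs the log2 ratio of S100a8 was -0.95, that of S100a9 -0.67 and that of Ccl8 -0.55, all under 2-fold, and that of Phlda1 was 0.87.

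Short of 2-fold, the named genes higher in Combined were Upp1, a uridine phosphorylase (112 and 214 CPM, 0.93), Maff (0.93), Slc22a4, a transporter (0.88), Socs1, the feedback inhibitor of interferon receptors (90.3 and 164 CPM, 0.85), Gclc, the first enzyme of glutathione synthesis (41.0 and 73.5 CPM, 0.83), and Dmkn (0.81). Those lower were the metallothionein Mt1 (226 and 116 CPM, -0.96), the non-coding RNA Zfas1 (-0.93), Rin2 (-0.90), Plcl1 (-0.90), the transcription factor Creb5 (120 and 64.2 CPM, -0.89) and the adhesion molecule Pecam1 (57.7 and 31.0 CPM, -0.88).

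By gene group, 1 of 20 compared interferon gamma response genes (Serpina3g) was called higher in Combined and none lower, and 17 of 20 had a ratio above 0, with a median of 0.19. Cxcl9, the chemokine in the study's title, stood at 712 CPM (695 to 730) in CTX and 783 (758 to 809) in Combined, a log2 ratio of 0.14 (0.08 to 0.20). Of 17 MHC class I genes 15 lay above 0 (median 0.24, none called), while all 7 MHC class II genes lay below 0 (median -0.34, none called): H2-Ab1 stood at 4100 and 3244 CPM and Cd74 at 8758 and 6924. Of 12 chemokines 2 were called lower, Ccl12 and Ccl8, with a median of -0.27. Arg1 was the 1 called gene among 20 of the hypoxia and arginase list (median -0.06), in which the glucose transporter Slc2a1 had a log2 ratio of 0.69. Chil3 was the 1 called gene among 24 classical monocyte genes (median 0.12). The 7 compared p53 target genes all lay above 0 (median 0.28, none called), among them Cdkn1a, the cell cycle inhibitor p21 (1282 and 1470 CPM, 0.20), and Ccng1 (49.0 and 70.1 CPM, 0.51). The other lists held no called gene, except that both compared genes of the granule list were S100a8 and S100a9.

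**Figure D3:**
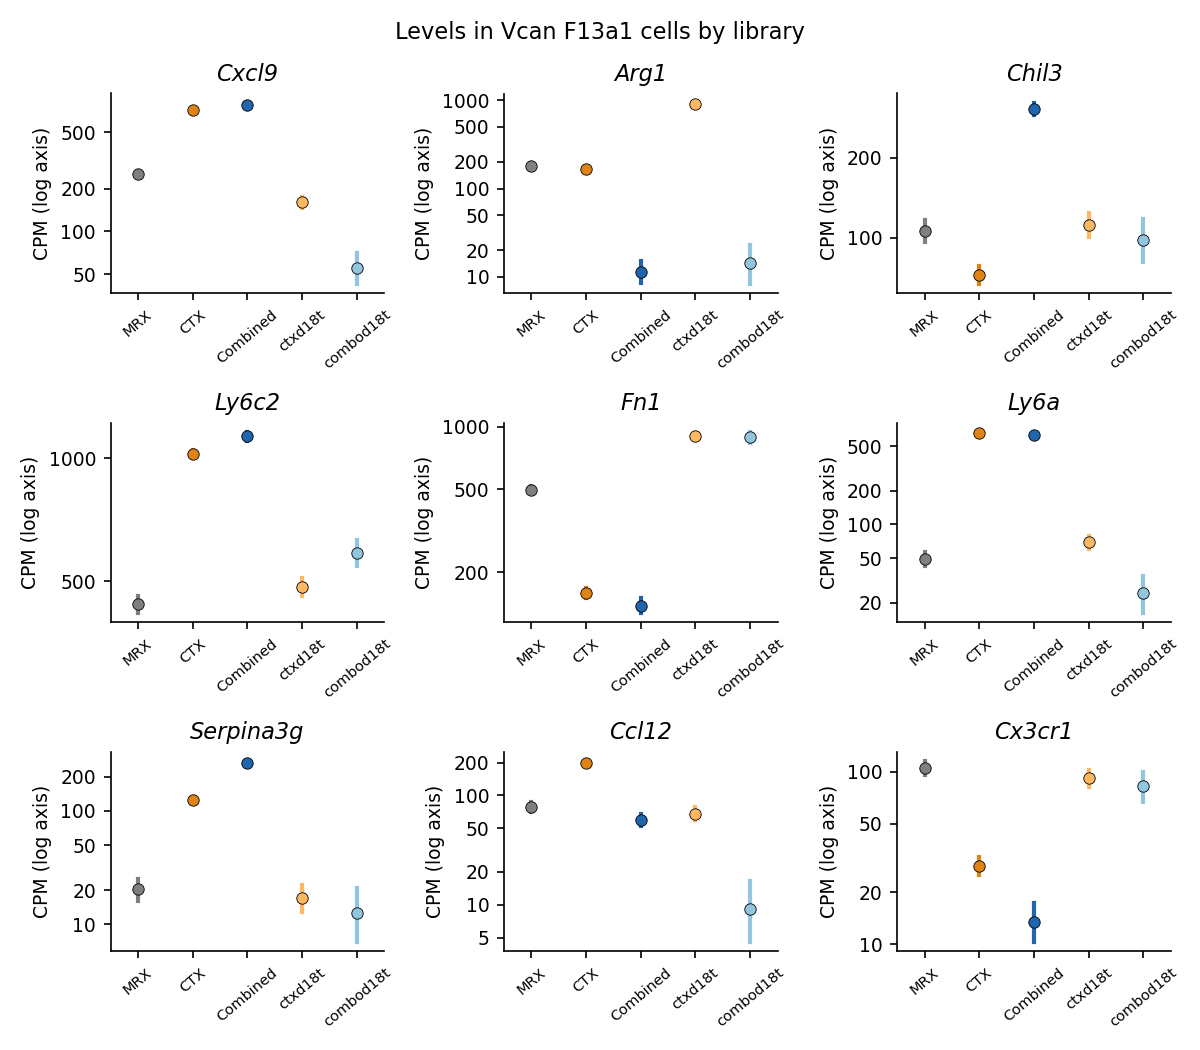
CPM in the Vcan F13a1 cells (vertical log axes, scaled per panel) is drawn for 9 genes in the 5 libraries, with exact 95% Poisson intervals where they are wider than the point. Arg1 is lowest in Combined (11.3 CPM) and combod18t (14.3 CPM), Chil3 is highest in Combined (306 CPM), and Fn1 is lowest in CTX (160 CPM) and Combined (139 CPM).

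Between the day-18 libraries Arg1 again stood apart. It was at 911 CPM (879 to 945) in ctxd18t and at 14.3 CPM (8.31 to 22.8) in combod18t, a log2 ratio of -5.90 (-6.78 to -5.32). A UMI of Arg1 was found in 25.7% of the ctxd18t cells and 3.75% of the combod18t cells, and 1 combod18t cell held 82.4% of that library's Arg1 UMIs. Thinned to 2000 UMIs, the shares were 18% and 1.25%, against 0.407% and 0% of B cells (median depths 7840 and 8313 UMIs in B cells, 13664 and 12986 in the chosen cells). Many chemokines and hypoxia-linked genes were lower too, and cell cycle genes and the coagulation factor gene F5 were higher.

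Of 3857 genes compared, 101 differed by 2-fold (2.62%), 41 higher in combod18t (1.06%) and 60 lower (1.56%), around a median of 0.06. The lower genes next to Arg1 were Slc7a2, a transporter that carries arginine into cells (79.8 CPM in ctxd18t, 3.36 in combod18t, log2 ratio -4.21), Hbegf, a ligand of the epidermal growth factor receptor (100 and 12.6 CPM, -2.90), Cxcl3 (195 and 27.7 CPM, -2.77), Ccl12 (68.4 and 9.23 CPM, -2.76), Ccl24, an eosinophil-attracting chemokine (274 and 49.5 CPM, -2.45), Spp1, which encodes osteopontin (435 and 82.3 CPM, -2.39), Cxcl1 (-2.33) and the syndecan Sdc4 (445 and 88.1 CPM, -2.32). Retnla, a gene of alternatively activated macrophages, was at 80.4 CPM in ctxd18t with all of its UMIs in 1 cell, and at 0 in combod18t.

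The highest ratios in combod18t came from 1 cell. Sorbs2 stood at 58.8 CPM in combod18t against 0 in ctxd18t with all of its UMIs in 1 cell, and Epcam (55.4 and 0.924 CPM, log2 ratio 4.87, interval 4.30 to 8.22, on 3 UMIs in ctxd18t), Rbms3 (4.45), Csn3, a milk casein (4.26), and Auts2 (4.03) were likewise 94 to 100% from 1 cell. That library also had the cell with 93 epithelial UMIs. Without cells holding 3 or more epithelial UMIs the log2 ratio of Auts2 was -1.99 and that of Csn3 -0.50. H1f5 (2.80), Pola1 (2.16), Hspb1 (1.75), H1f4 (1.60) and Kcnq1ot1 (1.45) followed. H1f4 was at 0.20 with cells thinned to 2000 UMIs, H1f5 at 0.71 among cells with a Ly6c2 UMI and Kcnq1ot1 at 0.23 without its highest cell. With each gene's highest cell left out of each library, 10 genes were higher and 65 lower, against 41 and 60 with all cells.

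Chemokines were the group with the most called genes: 8 of 13 were lower in combod18t and none higher, with a median log2 ratio of -1.14. Beside those above, Ccl7 stood at 183 and 47.0 CPM (-1.94), Ccl5 at 53.3 and 19.3 CPM (-1.42; 971 and 506 CPM in all other kept cells, whose part in this was not tested), Ccl4 at 290 and 131 CPM (-1.14) and Ccl3 at 64.4 and 30.2 CPM (-1.07). With cells thinned to 2000 UMIs the log2 ratio was -0.20 for Ccl7 and -0.51 for Ccl5. Ccl2, the main CCR2 ligand, was at 264 and 160 CPM and was not called (-0.72). Of 23 genes of hypoxia and arginase 7 were lower and 20 lay below 0, with a median of -0.71. They included Bnip3, a mitophagy receptor (103 and 25.2 CPM, -1.99), Egln3, a prolyl hydroxylase that senses oxygen (55.2 and 15.1 CPM, -1.80), Pdpn (-2.25) and Ero1a (197.5 and 94.9 CPM, -1.05). Of 13 macrophage differentiation genes 3 were lower (median -0.67): Ms4a7 (96.4 and 21.0 CPM, -2.15), the mannose receptor Mrc1 (530 and 134 CPM, -1.97) and the Fc receptor Fcgr4 (263 and 87.3 CPM, -1.58).

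The interferon gamma response genes were called in both directions between the day-18 libraries. Of 16 compared, 4 were lower: Cxcl10 (152 and 35.3 CPM, log2 ratio -2.08), Socs1 (90.9 and 28.5 CPM, -1.64), Cxcl9 (160 CPM, 147 to 175, against 55.4, 42.9 to 70.5, -1.52) and Cxcl11 (-1.05). Iigp1, an immunity-related GTPase, was higher (53 and 116 CPM, 1.11, and 0.65 among cells with a Ly6c2 UMI), and the median was -0.29. In combod18t 1 cell held 80.3% of the Cxcl9 UMIs and 1 cell held 87.9% of those of Cxcl11, and 8.75% of the cells had a Cxcl9 UMI against 20.7% in ctxd18t. Gbp2 stood at 125 and 107 CPM. Of 25 type I interferon response genes none was called, although 22 lay below 0 (median -0.42), among them Isg15 (443 and 262 CPM).

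Among the 7 compared cell cycle genes 4 were higher in combod18t, with a median of 1.21: Mki67 (47.4 and 124 CPM, log2 ratio 1.37), Top2a (33.0 and 91.5 CPM, 1.45), Stmn1 (1.39) and Pclaf (1.21). Mki67 had a UMI in 13.1% of the ctxd18t cells and 21.2% of the combod18t cells, and 1 cell held 50% of the combod18t UMIs. Without each library's highest cell the log2 ratio of Mki67 was 0.99, that of Top2a was -0.11 with cells thinned to 2000 UMIs, and those of Stmn1 and Pclaf were 0.93 and 0.44 among cells with a Ly6c2 UMI. After thinning to 2000 UMIs per cell, the share with a Mki67 UMI was 2.70% and 7.50%, below that of B cells treated alike (16.0% and 11.8%). F5, which encodes coagulation factor V, was spread more widely: 107 CPM (96.0 to 119) in 40.5% of the ctxd18t cells and 232 CPM (205 to 261) in 72.5% of the combod18t cells (log2 ratio 1.11). Thinned to 2000 UMIs, 16.7% and 30% of the cells had a F5 UMI, and 0% of B cells in either library, with a log2 ratio of 0.68. Il15 (1.27) and Pmaip1, a proapoptotic p53 target (47.1 and 99.1 CPM, 1.06), were higher as well, with ratios of 0.75 and 0.75 thinned. The log2 ratio of Il15 was 0.58 without each library's highest cell and 0.60 with at least 5 UMIs of Vcan and F13a1. None of 23 classical monocyte genes was called (median -0.06), nor any of 19 growth factor and cytokine receptors (0.02) or 27 transcription factors (0.23).

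The pairs Combined with CTX and combod18t with ctxd18t share no library. Of 3211 genes compared in both, 3 were lower by 2-fold in both (Arg1, Ccl12 and S100a9), 0 were higher in both and 0 were called in opposite directions. S100a9 rests on few cells in both pairs: without each library's highest cell its log2 ratio between the day-18 libraries was -0.84, and in Combined over CTX it was -0.63 among cells with fewer than 3 C1q UMIs. Short of 2-fold in 1 or both pairs, the named genes below 0 in both were Creb5 (-0.89 and -0.90), the lysosomal protease Lgmn (-0.77 and -0.99; 567 and 333 CPM in CTX and Combined, 698 and 350 in ctxd18t and combod18t) and the integrin chain Itgb5 (-0.75 and -0.92). Those above 0 in both were Gclc (0.83 and 0.64), Phlda1 (1.10 and 0.62), Reps1, AI839979 and Srd5a3, each with a smaller ratio of 0.57 to 0.64. All 7 MHC class II genes lay below 0 in both pairs, with medians of -0.34 and -0.33. Chil3, highest in Combined, was at 112 and 98.2 CPM in ctxd18t and combod18t (-0.19).

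**Figure D4:**
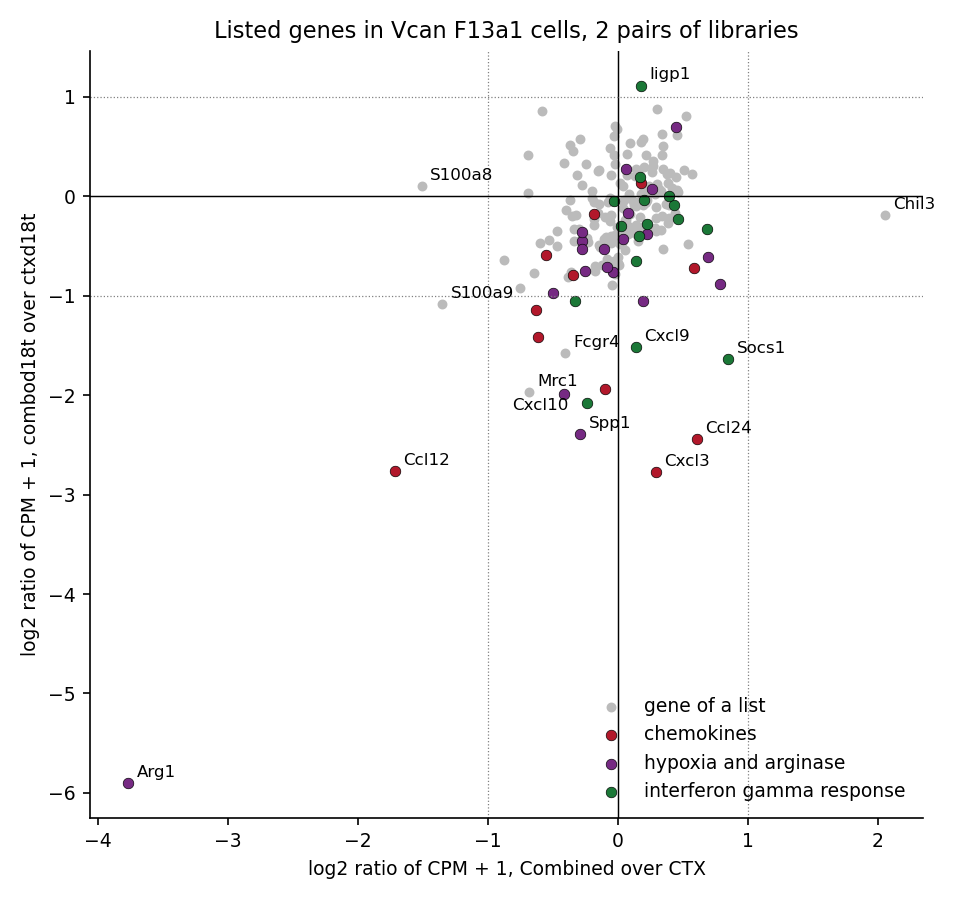
Each of 213 listed genes is a point at its log2 ratio of CPM + 1 in Combined over CTX (horizontal) and combod18t over ctxd18t (vertical), with dotted lines at 2-fold. Arg1 lies at -3.77 and -5.90 and Ccl12 at -1.71 and -2.76, while Socs1, Ccl24 and Cxcl3 lie right of and below 0.

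Arg1 and Ccl12, lower in both pairs, and Chil3, higher in Combined than in CTX, were also read in C1q-high cells. There Arg1 stood at 7.45 CPM in MRX, 259 in CTX and 33.4 in Combined, and 212 in ctxd18t and 14 in combod18t, and in the chosen cells at 182, 167, 11.3, 911 and 14.3 CPM. Ccl12 stood at 104, 297, 189, 190 and 107 CPM in C1q-high cells and at 78.4, 199, 60.0, 68.4 and 9.23 CPM in the chosen cells. Chil3 was at 1.87 to 42.5 CPM in C1q-high cells and at 72.8 to 306 in the chosen cells, and Combined was the highest library in both.

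CTX and Combined were each set beside MRX. Both comparisons use the same MRX library, and CTX and Combined are themselves compared above, so the values are given side by side. The leading difference was the interferon gamma response. Of 20 compared genes 19 were called higher in CTX than in MRX and 20 of 20 in Combined, with median log2 ratios of 1.69 and 1.73. The gene not called was Irgm1 (0.96 in CTX). Over all genes, 139 of 3484 were called in CTX against MRX (3.99%), 86 higher (2.47%) and 53 lower (1.52%). In Combined against MRX 203 of 3574 were called (5.68%), 116 higher (3.25%) and 87 lower (2.43%). The median log2 ratio over all genes was -0.03 and 0.03.

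Among the interferon gamma genes, Cxcl9 stood at 253 CPM (238 to 268) in MRX, 712 in CTX and 783 in Combined, log2 ratios of 1.49 and 1.63. After thinning to 2000 UMIs, 6.62% of the MRX cells had a Cxcl9 UMI, 35.1% of the CTX cells and 41.6% of the Combined cells, against 0.380 to 0.734% of B cells in those libraries (median depths 4104.5 to 5287 UMIs, against 8976 to 11819 in the chosen cells). Cxcl9 was not particular to the chosen cells: over the 5 libraries it stood at 207 to 1119 CPM in C1q-high cells. The log2 ratio of Cxcl9 in the chosen cells over C1q-high cells was -1.88 to -0.21. Over the remaining Lyz2 cells, short of both cuts, it was -3.77 to -0.28. Gbp2, a guanylate-binding protein, stood at 51.9, 209 and 288 CPM (1.99 and 2.45). Iigp1 stood at 19.4, 146 and 165 CPM (2.85 and 3.03) and Cd274, which encodes the checkpoint ligand PD-L1, at 107, 434 and 479 CPM (2.01 and 2.16). Socs1 stood at 21.5, 90.3 and 164 CPM (2.02 and 2.87) and Serpina3g at 20.3, 123 and 262 CPM (2.54 and 3.62). Irf1 stood at 76.5, 187 and 210 CPM. The receptor chain Ifngr1 was lower, at 390, 197 and 209 CPM, and Ifngr2 was at 182, 184 and 177 CPM.

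**Figure D5:**
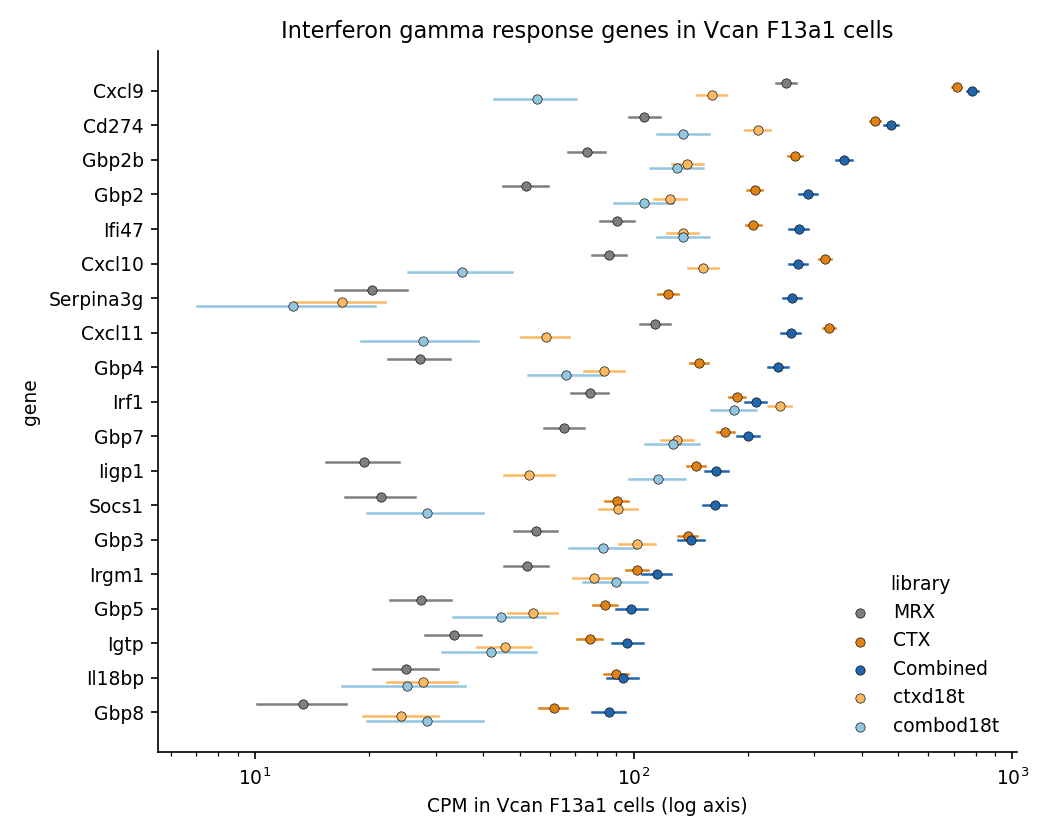
CPM in the Vcan F13a1 cells (horizontal log axis) is drawn for 19 of the compared interferon gamma response genes (vertical axis), 1 point per library with exact 95% Poisson intervals. MRX is the lowest of MRX, CTX and Combined for every gene drawn, and Cxcl9 runs from 55.4 CPM in combod18t to 783 in Combined.

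The promoters of the interferon gamma list were searched for the letters of known binding sites. GAS elements, known from genes induced by interferon gamma, were searched as TTCNNNGAA, which reads the same on both strands, and IRF proteins bind repeats searched here as GAAANNGAAA on both strands. In the RefSeq promoters of build GRCm38.p6, 18 of the 27 listed genes had a window of 250 bases before the start. A GAS match was in 8 of those 18 (44.4%) and the IRF repeat in 12 (66.7%), against 8.13% and 3.46% of all 27025 genes with a promoter. Either was in 14 genes (77.8%, against 11.1% of all). The listed genes with a window but neither match were Cxcl9, Cd274, Ifi47 and Il18bp. In the type I interferon list 13.3% of 30 genes had the GAS letters and 56.7% the IRF repeat, and in the chemokine list 8.33% of 12 genes had each. The last 100 bases before the start are shown for 6 genes of the list whose matches lie within them, with the matches in capitals. These are Gbp2 at chr3:142620563-142620662, plus strand, Irf1 at chr11:53769914-53770013, plus strand, Igtp at chr11:58199456-58199555, plus strand, Irgm2 at chr11:58214877-58214976, plus strand, Serpina3g at chr12:104236047-104236146, plus strand, and Socs1 at chr16:10785537-10785636, minus strand.
Gbp2: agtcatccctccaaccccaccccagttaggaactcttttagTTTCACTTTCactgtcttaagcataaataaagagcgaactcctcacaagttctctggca
Irf1: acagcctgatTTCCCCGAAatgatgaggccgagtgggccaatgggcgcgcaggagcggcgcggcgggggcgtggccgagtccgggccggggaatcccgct
Igtp: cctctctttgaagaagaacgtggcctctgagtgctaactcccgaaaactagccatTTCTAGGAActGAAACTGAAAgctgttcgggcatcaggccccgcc
Irgm2: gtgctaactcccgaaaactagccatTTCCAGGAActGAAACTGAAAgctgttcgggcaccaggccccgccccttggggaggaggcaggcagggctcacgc
Serpina3g: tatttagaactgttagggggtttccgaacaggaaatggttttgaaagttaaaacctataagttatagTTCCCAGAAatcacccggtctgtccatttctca
Socs1: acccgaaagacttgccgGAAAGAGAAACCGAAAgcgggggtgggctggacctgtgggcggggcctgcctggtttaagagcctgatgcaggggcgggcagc

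The neighbouring GTPase genes Igtp and Irgm2 carry a GAS match followed, after 2 bases, by an IRF repeat. The matches start 45 and 34 bases before the start of Igtp and 75 and 64 bases before that of Irgm2. The same arrangement was found before Tgtp1 (88 and 77 bases) and Tgtp2 (81 and 70 bases), GTPase genes of the list that were under the level needed for comparison. Igtp stood at 33.5 CPM in MRX, 76.6 in CTX and 96.2 in Combined, with 45.6 in ctxd18t and 42.0 in combod18t. Irgm2 was lower throughout, at 9.33, 23.9, 24.2, 27.4 and 25.2 CPM, and was under the level needed for comparison. The Socs1 stretch holds 2 overlapping IRF repeats. A match of letters is a description of the sequence and was not tied to the levels.

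The type I interferon list had fewer called genes than the interferon gamma list. Of it 1 of 26 genes was called higher in CTX (Oasl1, 1.14) and 2 of 28 in Combined (Oasl1, 1.01, and Zbp1, 1.24). Most of its genes still lay above 0: 26 of 26 in CTX over MRX and 25 of 28 in Combined over MRX, with medians of 0.49 and 0.42. Of 17 MHC class I genes 9 and 10 were called higher (medians 1.02 and 1.21), among them the peptide transporter Tap1 (54.8, 141 and 186 CPM) and the immunoproteasome subunit Psmb8 (396, 841 and 1034 CPM). Of 7 MHC class II genes 3 and 1 were called higher (medians 0.98 and 0.64), with H2-Ab1 at 2074, 4100 and 3244 CPM.

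Genes of the Ly6 family of small surface proteins were among those with the highest ratios over MRX. Ly6a, which encodes Sca-1, stood at 49.3 CPM in MRX, 656 in CTX and 622 in Combined (log2 ratios 3.71 and 3.63). Ly6a2 stood at 4.30, 71.2 and 70.1 CPM (3.77 and 3.74) and Ly6i at 28.2, 298 and 358 CPM (3.35 and 3.62). Ly6c2, the classical monocyte marker, stood at 438, 1024 and 1131 CPM (1.22 and 1.37). These genes are near copies of each other, and how reads were split between them was not tested. Pdcd1lg2, which encodes PD-L2, stood at 6.70, 58.9 and 34.3 CPM (2.96 and 2.20), Lpl, the lipoprotein lipase, at 21.0, 120 and 147 CPM (2.46 and 2.75) and Gbp4 at 27.3, 149 and 240 CPM (2.41 and 3.10).

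Genes lower than in MRX included several of macrophages. Pf4, a platelet factor also made by macrophages, stood at 98.5 CPM in MRX, 9.69 in CTX and 1.75 in Combined (log2 ratios -3.22 and -5.18), with 49.8% of the MRX UMIs in 1 cell. Lrg1 stood at 102, 10.7 and 11.8 CPM (-3.13 and -3.01), Igfbp6 at 73.6, 15 and 6.11 CPM (-2.22 and -3.39), Glis3 at 176, 45.0 and 49.5 CPM (-1.95 and -1.81) and Cx3cr1 at 106, 28.5 and 13.5 CPM (-1.85 and -2.88). Ms4a7 stood at 98.8, 45.1 and 11.1 CPM (-1.11 and -3.04). Apoe stood at 4207, 1228 and 944 CPM (-1.78 and -2.15) and Trem2, a lipid receptor, at 118, 48.2 and 27.1 CPM (-1.27 and -2.08). Of 16 macrophage differentiation genes 4 were called lower and 1 higher in each comparison (medians -0.34 and -0.45); the higher one was Lpl. Of 14 chemokines 3 were called higher and 2 lower in CTX, and 2 higher and 4 lower in Combined. Fn1 (-1.64 and -1.84), Spp1 (1047, 363 and 298 CPM, -1.52 and -1.81) and the complement receptor C5ar1 (395, 150 and 155 CPM, -1.39 and -1.34) were lower as well. None of 17 growth factor and cytokine receptors was called in either comparison. Arg1 was at 182 CPM in MRX and 167 in CTX (-0.12), and at 11.3 CPM in Combined (-3.89).

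The receptor named in the study's title was at a low level in these cells. Mertk stood at 19.1 CPM (15.2 to 23.8) in MRX, 13 (10.7 to 15.6) in CTX, 8.51 (6.05 to 11.6) in Combined, 12.9 (9.33 to 17.5) in ctxd18t and 7.56 (3.45 to 14.3) in combod18t, under the level needed for comparison, and 7.50 to 13% of the cells had a UMI. Against C1q-high cells its log2 ratio lay between -3.0 and -0.94. Of its relatives, Axl stood at 25.1, 48.9, 37.1, 22.2 and 8.40 CPM, and Tyro3 was at 0 in 4 libraries and at 0.218 CPM in Combined. Gas6, a ligand of all 3 receptors, was at 0 to 2.63 CPM. Of the list of these receptors and genes for uptake of dying cells, none of 9 was called between Combined and CTX (median -0.27) and 1 of 10, Mrc1, was lower in combod18t than in ctxd18t (-0.26). Against MRX, Cd36, a scavenger receptor, was called higher in CTX (44.5 and 151 CPM, 1.75) and Combined (96.7 CPM, 1.10), Itgb5 was lower in both (-1.14 and -1.89), and Lrp1 was lower in Combined (479 and 180 CPM, -1.40).

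For the day-18 libraries time and library run cannot be told apart from each other, so their levels are only set side by side with those of the other 3. Thbs1 stood at 1416 CPM in MRX, 1005 in CTX and 1215 in Combined, and at 2003 in ctxd18t and 2566 in combod18t. Gda, guanine deaminase, stood at 466, 303 and 239 CPM, and at 680 and 934 CPM. The transcription factor Klf2 stood at 168, 72.7 and 93 CPM, and at 274 and 391 CPM. Ly6a (69.0 and 24.3 CPM), Serpina3g (17.0 and 12.6 CPM) and Lpl (6.47 and 9.23 CPM) were in the day-18 libraries near or under their MRX levels and below those of CTX and Combined. Cx3cr1, at 91.5 and 82.3 CPM, lay near its MRX level of 106 CPM.

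The chosen cells were not alike within a library. Cells with and without a Ly6c2 UMI numbered 317 and 121 in MRX, 680 and 20 in CTX, 336 and 5 in Combined, 192 and 30 in ctxd18t, and 74 and 6 in combod18t. Plac8 was higher in cells with a Ly6c2 UMI in all 5 libraries (log2 ratios 0.63, 0.86, 0.37, 0.52 and 1.84), while Apoe was lower (-0.36, -0.93, -0.63, -0.32 and -0.60) and H2-Ab1 was lower (-0.34, -0.39, -0.26, -0.27 and -0.34). Arg1 was lower in cells with a Ly6c2 UMI in MRX (104 against 410 CPM), CTX (148 against 901), Combined (10.4 against 107) and ctxd18t (812 against 1640), but not in combod18t (14.4 against 12.8 CPM, 6 cells without Ly6c2). The Combined value of 107 CPM rests on 5 Arg1 UMIs in 5 cells. Cells without a Ly6c2 UMI were shallower in all 5 libraries. Median depths without and with one were 8646 and 9141 UMIs in MRX, 10499 and 10886 in CTX, and 6800 and 11859 in Combined. They were 12212 and 14146.5 in ctxd18t and 9029.5 and 13063.5 in combod18t, and the part of depth in this split was not tested.

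Cells with 3 to 9 C1q UMIs, which lie nearer to the macrophage boundary of the rule, numbered 38 in MRX, 83 in CTX and 45 in Combined, and 18 in ctxd18t and 4 in combod18t. Against cells with 0 to 2, Apoe was higher in them in all 5 libraries (log2 ratios 0.58, 0.36, 0.24, 1.16 and 2.0), as were H2-Ab1 (0.54, 0.19, 0.28, 1.06 and 0.99) and Cx3cr1 (0.29, 0.86, 0.91, 1.62 and 0.79). Cells with 3 to 9 C1q UMIs were deeper in CTX (median 13847 against 10628 UMIs), Combined (15655 against 11360) and combod18t (24017.5 against 12939.5). They were not deeper in MRX (8793.5 against 8978) or ctxd18t (13198.5 against 13823), and the part of depth was not tested.

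Cells with Cxcl9 did not hold Arg1 more or less often in one direction over the libraries. Thinned to 2000 UMIs each, Arg1 was found in 0% of the MRX cells with Cxcl9 and 6.60% of those without, in 11.0% and 8.15% in CTX, in 2.11% and 1.51% in Combined, in 14.3% and 18.4% in ctxd18t, and in 0% and 1.30% in combod18t. Cells with both genes numbered 0 of 438 in MRX, 27 of 699 in CTX, 3 of 341 in Combined, 3 of 222 in ctxd18t and 0 of 80 in combod18t. Gbp2 was found in 44.8% of MRX cells with Cxcl9 and 6.11% of those without. The same shares were 44.5% and 23.8% in CTX, 43.0% and 34.7% in Combined, 19.0% and 12.9% in ctxd18t, and 66.7% and 11.7% in combod18t, where 3 cells had Cxcl9. Ly6c2 was found in 25.9% of MRX cells with Arg1 and 43.1% of those without, in 70.3% and 80.6% in CTX, in 66.7% and 86.9% in Combined, and in 30% and 51.6% in ctxd18t. Hilpda, a lipid droplet gene induced by low oxygen, was found in 77.8% of MRX cells with Arg1 and 24.6% of those without, in 32.8% and 17.5% in CTX, and in 57.5% and 21.4% in ctxd18t. In Combined it was found in 0% and 27.8%, where few cells had Arg1 after thinning (1.76%). All these values describe cells of 1 library each and were not tested.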

How the data were processed

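Live CD45+ cells of mouse mammary tumours were profiled with a 10x 3' single-cell kit and, per the labels' protocols, demultiplexed and counted with Cell Ranger 9.0.1. The submitters' processing notes name build GRCm39 and Seurat 5.2.0. The authors deposited UMI counts per gene and cell, not normalized; these were used as deposited. Cells with at least 200 genes and at most 15% mt- counts were kept (27348 barcodes, 26843 cells). Counts of the chosen cells were summed per library and scaled to CPM. Ratios used a pseudocount of 1 CPM and exact conditional binomial limits; shares used Clopper-Pearson and Newcombe limits. With 1 library per group no test was run.

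The members, gene lists and named-gene rule were chosen with earlier results of these data known. The rule names, among genes with a member CPM at least 0.5 times that of the other kept cells, the 10 highest and 10 lowest ratios for Combined against CTX and combod18t against ctxd18t, the 5 each way against MRX, and the 5 each way by the smaller ratio over both pairs. Other named genes, called or from the fixed lists, were picked after their values were seen. Scrublet's automatic calls (0 to 0.134% of cells per library) did not work, so the highest-scoring cells, up to 5%, were removed as an alternative. Rows that share a symbol (52 of 33696) were summed. Scripts were tested on simulated data. Software was numpy 2.4.6, pandas 2.3.3, scipy 1.17.1 and scanpy 1.11.5. Promoters came from RefSeq tables of GRCm38.p6, used for sequence and their own coordinates only. Some genes are not reported here.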

Additional observations from a re-analysis of the deposited data

Results flagged for a closer look

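Of 72 genes looked at, some, among them F5 and Mertk, were not compared in both pairs and could not be flagged. For 5 genes the log2 ratio was above 0 in Combined over CTX and below 0 in combod18t over ctxd18t. Both counting intervals of these genes lay on their own side of 0. The difference between the pairs was not tested, and each pair is 1 library against 1. The eosinophil-attracting chemokine Ccl24 had a log2 ratio of 0.61 in Combined over CTX and -2.45 in combod18t over ctxd18t. Cxcl3 had 0.29 and -2.77, and the interferon feedback inhibitor Socs1 had 0.85 and -1.64. Cxcl9 had 0.14 and -1.52; 1 of the 80 combod18t cells held 80.3% of that library's Cxcl9 UMIs, and without each library's highest cell the second ratio was -3.43. The oxidoreductase gene Ero1a had 0.20 and -1.05.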

How the results depend on the processing

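No paired analysis was possible because each group has 1 library, and no replicate could be left out. The difference in share of Lyz2 cells between Combined and CTX was 7.76 points with at least 5 UMIs of Vcan and F13a1. It was 4.46 with cells thinned to 5000 UMIs and shallower cells left out. In share of kept cells, CTX minus MRX was 0.953 with at least 2 UMIs and -3.28 thinned, and Combined minus MRX was -3.76 thinned; in share of Lyz2 cells Combined minus MRX was -11.3 thinned. The number of genes past 2-fold between Combined and CTX was 29 with members thinned to 2000 UMIs and 46 with a filter of 10 CPM and 20 counts. That filter gave 429 between the day-18 libraries, 291 for CTX against MRX and 427 for Combined against MRX. Between the day-18 libraries, Auts2 turned to -1.99 without epithelial-marker cells, Csn3 to -0.65, -0.50 and -0.63, Lcn2 to -0.60, -0.50 and -0.20, and Rbms3 to -0.47, -0.31 and -0.065 (at least 5 UMIs, without those cells, and without each gene's highest cell). Epcam turned to -1.02 with at least 5 UMIs and Top2a to -0.11 with members thinned. Apart from the settings that leave out cells by construction, the cause was not tested. Leaving out cells with epithelial markers and leaving out each gene's highest cell were chosen after seeing the data. Of 176 called ratios of named or listed genes, 168 kept their direction and 122 stayed past 2-fold under every setting; Arg1 ranged from -3.92 to -3.05 in Combined over CTX and from -7.87 to -5.25 between the day-18 libraries. The number of cells limits the combod18t values most, at 80 cells.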

Other observations

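Levels of the cytokine gene Il1b and of Il1rn differed by less than 2-fold between any of the 5 libraries. Il1b, which encodes interleukin 1 beta, stood at 2475 CPM in MRX, 3638 in CTX and 3519 in Combined, and at 3702 in ctxd18t and 1989 in combod18t. Its antagonist Il1rn stood at 222, 307 and 403 CPM, and at 250.5 and 216 CPM. Tnf (16.0 to 24.3 CPM) and Il6 (2.52 to 4.36 CPM) were under the 50 CPM needed for comparison in every library. The neutrophil-attracting chemokine Cxcl2 stood at 3745 CPM in MRX, 1912 in CTX and 1504 in Combined, and at 1606 in ctxd18t and 926 in combod18t. Its log2 ratios were -0.35 in Combined over CTX, -0.79 in combod18t over ctxd18t, and -0.97 and -1.32 in CTX and Combined over MRX.

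Cd14, the coreceptor for lipopolysaccharide, stood at 3311 CPM in MRX, 2272 in CTX and 2510 in Combined, and at 2425 in ctxd18t and 2274 in combod18t. The receptor Csf1r ranged from 172 to 238 CPM, and the lineage factor Spi1 from 332 to 438 CPM. Cxcr4, which holds cells in bone marrow, stood at 153, 95 and 93.6 CPM in MRX, CTX and Combined, and at 143 and 233 CPM in ctxd18t and combod18t.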
